A study of Mus musculus with 6 samples.

Results

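The mitochondrial genome encodes 13 proteins, all of them subunits of the respiratory chain or of ATP synthase, and 10 of these genes are described here in prefrontal cortex of mice carrying the 16p11.2 duplication. They are mt-Nd1, mt-Nd2, mt-Nd4, mt-Nd5 and mt-Nd6 of complex I, mt-Cytb of complex III, mt-Co1, mt-Co2 and mt-Co3 of complex IV and mt-Atp6 of ATP synthase. They were chosen by symbol, as 10 of the 37 names with the prefix mt- among the 45476 names of the count table that were used. All 10 passed the filter on low counts and were tested. RNA from prefrontal cortex homogenate was sequenced from mice at postnatal week 8, in 3 libraries heterozygous for the 16p11.2 duplication and 3 wild type libraries. The line was first bred on mixed C57BL/6N and 129Sv stock, was crossed to C57BL/6 for 10 generations and is kept on that strain, and the labels name no further allele or treatment in either group. The libraries were made from total RNA depleted of ribosomal RNA, and total counts ranged from 12988457 to 21872271. Whether each library came from its own animal is not stated in the labels, and p-values cover only the spread seen between the libraries.

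Mitochondrial DNA is a small circle present in many copies per cell and inherited through the mother. Both of its strands are transcribed by the polymerase POLRMT with the factors TFAM and TFB2M as long precursors, and tRNAs that lie between the genes are cut out to release the mRNAs and rRNAs. Nearly all mRNAs come from the heavy-strand promoter region, while mt-Nd6 is the only protein gene on the transcript of the light-strand promoter. The respiratory chain is then built from these few core subunits and many more encoded in the nucleus. In cortex it supplies the ATP that ion pumping and synaptic transmission consume. In homogenate, fewer cells of a type and less RNA per cell cannot be told apart.

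Copies of mitochondrial DNA in the nuclear genome bear on what the counts of these genes measure, so their sequences are shown first. GENCODE lists a run of pseudogenes on chromosome 1 (mm10), from Gm28439 at 24611535 to Gm29216 ending at 24616197, all on the minus strand. Of the 50-base words of an mRNA, 100% for mt-Co2, 99.9% for mt-Co3 and 99.5% for mt-Atp6 also occurred in another annotated transcript. The share was 62.2% for mt-Nd4, 51.1% for mt-Co1, 8.19% for mt-Nd2 and 7.61% for mt-Nd5. It was 0% for mt-Nd1, mt-Nd6 and mt-Cytb. Over their aligned lengths, Gm28661 was identical to mt-Co2 at 681 of 681 bases, Gm28437 to mt-Co3 at 783 of 783 and Gm10925 to mt-Atp6 at 678 of 678. Gm28439 was identical to mt-Nd4 at 876 of 876 bases, and Gm29216 to mt-Co1 at 482 of 483. The search covered annotated transcripts only, so these shares are lower bounds for the genome.

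A stretch of mt-Co1 (chrM:6390-6449, plus strand) is shown with its chromosome 1 copy Gm29216 (chr1:24616129-24616188, minus strand) and its chromosome 2 copy Gm13340 (chr2:22588526-22588585, minus strand). Each copy differs here at 1 base, so a read within this window matches mt-Co1 alone of these sequences only if it spans both bases. Capitals mark the bases at which a copy differs. Counted from the first base of the mRNA, the substitutions from mt-Co1 to the copy are A1066T in Gm29216 and T1072C in Gm13340, and past them the copies cannot be told from the mRNA within this window.
mt-Co1: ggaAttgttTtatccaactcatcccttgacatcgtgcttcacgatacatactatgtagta
Gm29216: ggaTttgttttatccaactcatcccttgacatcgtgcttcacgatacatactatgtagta
Gm13340: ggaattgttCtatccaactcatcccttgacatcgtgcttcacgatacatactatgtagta

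In the same way a stretch of mt-Co2 (chrM:7213-7272, plus strand) is set beside Gm28661 (chr1:24615306-24615365, minus strand), which has every base in common with it, and Gm13341 (chr2:22587703-22587762, minus strand), which has the substitutions T231C and T255C, again in capitals.
mt-Co2: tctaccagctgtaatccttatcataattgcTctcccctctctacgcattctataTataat
Gm28661: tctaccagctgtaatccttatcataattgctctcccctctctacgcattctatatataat
Gm13341: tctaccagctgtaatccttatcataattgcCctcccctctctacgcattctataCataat

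The counted levels of the 3 mRNAs that are almost wholly shared were far lower than those of the others. Per kilobase of gene, mt-Co1 had 9004 ± 245 CPM in duplication libraries and 8841 ± 543 in wild type libraries (CPM, counts scaled by library size and TMM factors; mean ± SD, n = 3 each). mt-Co2, a subunit of the same enzyme, had 13.9 ± 3.0 CPM per kilobase in duplication and 15.1 ± 0.8 in wild type libraries. The copy Gm28661 itself had 68, 70 and 61 counts in duplication libraries and 48, 58 and 52 in wild type libraries. mt-Co2 had 159, 168 and 157 counts in duplication libraries and 125, 158 and 139 in wild type libraries. Gm10925 had 45, 30 and 40 counts in duplication and 34, 53 and 32 in wild type libraries, above mt-Atp6 in each library. mt-Atp6 had 40, 26 and 31 counts in duplication and 25, 38 and 30 in wild type libraries. The values of mt-Co2, mt-Co3 and mt-Atp6, and those of the copies, are therefore reported as uncertain: how the authors treated reads that match several places is not stated in the labels, and these counts are not read as mRNA levels. The 3 mitochondrial mRNAs outside the set of 10 had still fewer counts over all 6 libraries, 44 for mt-Nd3, 36 for mt-Atp8 and 6 for mt-Nd4l, and were not tested. mt-Nd3 and mt-Nd4l shared 98.0% and 98.8% of their words, and mt-Atp8 shared 0% with annotated transcripts. mt-Atp8 (chrM:7766-7969) begins between mt-Co2 and mt-Atp6. Their chromosome 1 copies leave a stretch between the end of Gm10925 at 24614651 and the start of Gm28661 at 24614885. The genome sequence there was not searched, so the 0% does not show that mt-Atp8 lacks a copy.

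**Figure D1:**
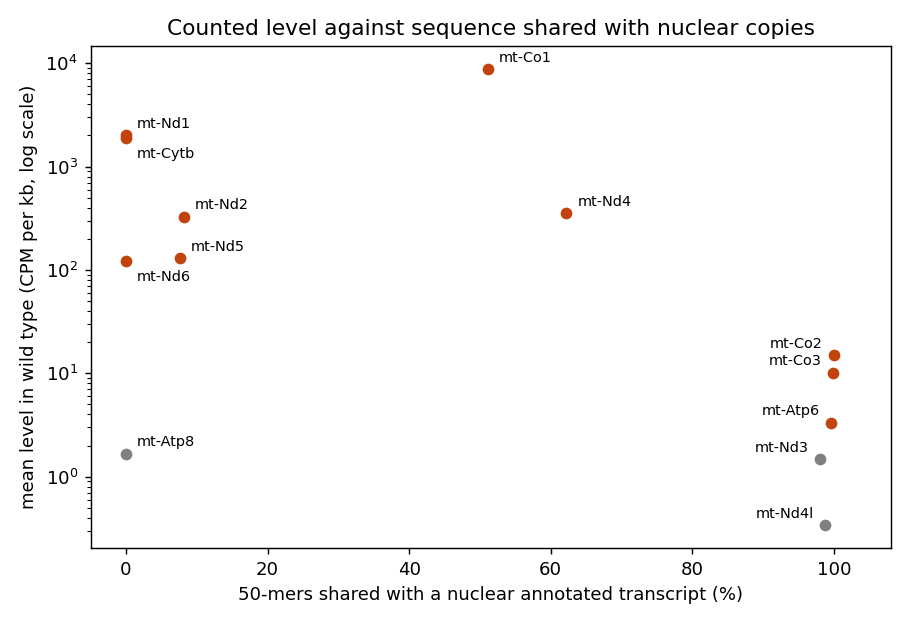
Mean level of each mitochondrial mRNA in wild type libraries (CPM per kilobase, log scale) against the percent of its 50-base words that occur in an annotated nuclear transcript. Members are orange and the other mitochondrial mRNAs grey. mt-Co2, mt-Co3 and mt-Atp6 lie at 99.5% or more and at 15.1, 10.2 and 3.34 CPM per kilobase, while the 7 other members lie above 100.

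Among the 7 mRNAs with more unshared sequence, levels per kilobase differed widely, and their means stood in the same order in both groups. mt-Co1 came first, then mt-Nd1 with 1989 ± 33 CPM per kilobase in duplication and 2027 ± 104 in wild type libraries, and mt-Cytb with 1707 ± 24 in duplication and 1873 ± 113 in wild type libraries. In wild type libraries mt-Nd1, at 1924 to 2131, and mt-Cytb, at 1742 to 1940, overlapped. mt-Nd4 followed with 307 ± 8 in duplication and 353 ± 15 in wild type libraries, and mt-Nd2 with 285 ± 6 in duplication and 328 ± 15 in wild type libraries. Last were mt-Nd5, with 125 ± 9 in duplication and 130 ± 2 in wild type libraries, and mt-Nd6, with 92.2 ± 8.5 in duplication and 122 ± 10 in wild type libraries. The values of mt-Nd4 and mt-Nd2, and those of mt-Nd5 and mt-Nd6, overlapped in wild type libraries and did not in duplication libraries. mt-Co1 and mt-Nd4 share much of their length with copies, so their place in this order is uncertain.

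Most mitochondrial mRNAs had slightly lower values in duplication than in wild type libraries, and no member passed the test. With the edgeR quasi-likelihood test, adjusted over all 15401 tested genes by the Benjamini-Hochberg method at 0.05, 0 of 10 members were called, where 0% of all genes were called higher and 0% lower. Of the 10 members, 9 had a log2 fold change below 0, with a median of -0.14, against a median of 0.0050 over all tested genes, of which 51% were above 0. Without mt-Co2, mt-Co3 and mt-Atp6, whose counts are uncertain, 6 of 7 lay below 0, with a median of -0.13. At an unadjusted p under 0.05, 3 members were lower and 0 higher, where the background was 12.2% of genes lower and 7.07% higher. For 5 members every duplication library lay below every wild type library, where this held for 10.5% of all genes and 22.2% had groups that did not overlap in either direction. Of the 7 without those 3, it held for 4, with mt-Nd4 among them, of whose words 62.2% are shared. All 5 complex I members lay below 0, with a median of -0.20, as did mt-Cytb. In complex IV, mt-Co1 lay at 0.03. mt-Co2, mt-Co3 and mt-Atp6 lay below 0 too, on counts that are uncertain.

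**Figure D2:**
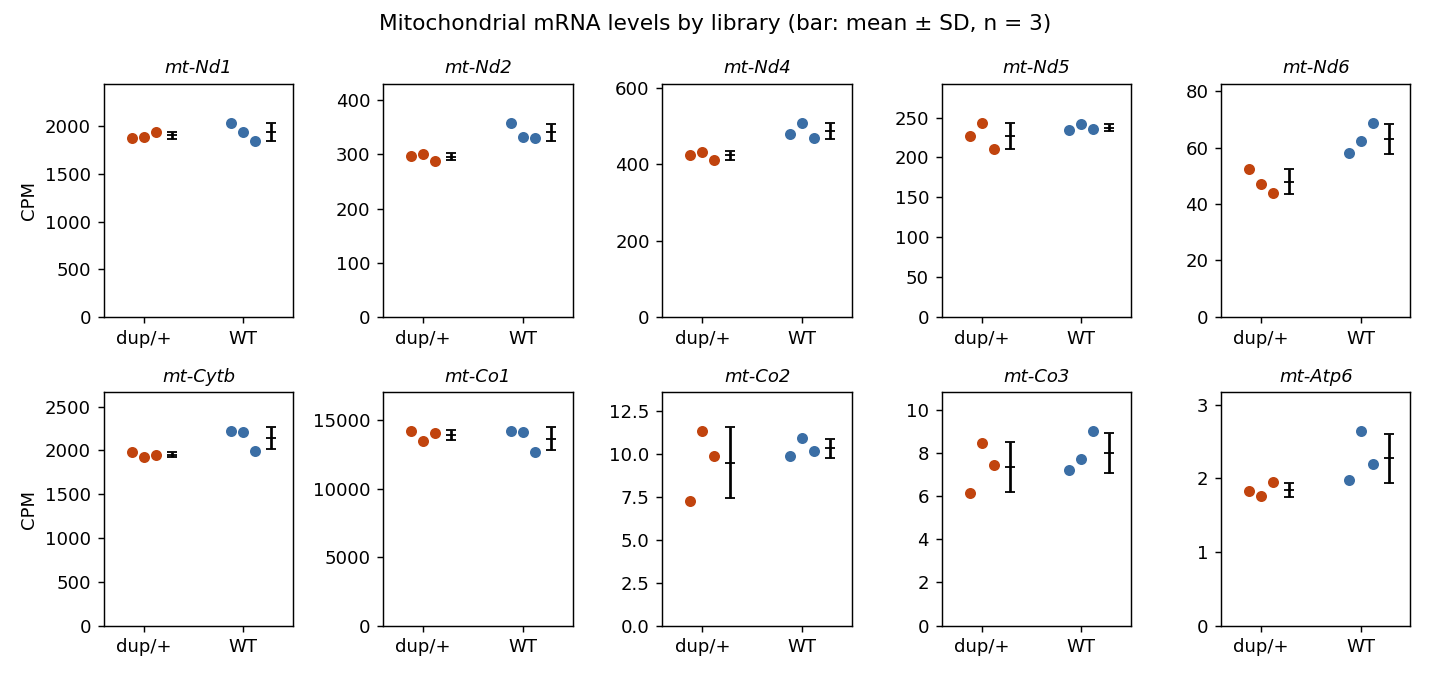
CPM of the 10 members in each library, 1 panel per gene, with 3 duplication libraries (orange, left) and 3 wild type libraries (blue, right) and the mean ± SD beside each group. The groups do not overlap for mt-Nd2, mt-Nd4, mt-Nd6, mt-Cytb and mt-Atp6, and each axis starts at 0.

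mt-Nd6 had the smallest p among the members and the largest fold change with all libraries and no covariate. With the level of transcripts of the GENCODE classes TEC and sense intronic as a covariate, mt-Atp6 was at -0.55 and mt-Nd6 at -0.46, and without duplication replicate 3 both were at -0.34. mt-Nd6 encodes a membrane subunit of complex I and is the light-strand member, with its gene at chrM:13552-14070 on the minus strand. It had 52.6, 47.1 and 43.9 CPM in duplication libraries 1 to 3, against 58.3, 62.4 and 68.9 CPM in wild type libraries 1 to 3. Every duplication library was below every wild type library, and the log2 fold change was -0.40 ± 0.09 (SE; edgeR unadjusted p = 0.00153, adjusted p = 0.173). It was called lower with DESeq2 (adjusted p = 0.0243), in edgeR without a filter on low counts (0.00938) and in edgeR without wild type replicate 2 (0.0211). In that order, these fits called 1.55%, 3.18% and 10.7% of all genes lower. Over all alternatives the adjusted p of mt-Nd6 ranged from 0.00938 to 0.9996.

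The gene overlaps mt-Nd5 at its 3′ end by 14 bases on the opposite strand. The ends of both mRNAs are shown because reads over this overlap match both genes if strand was not used. Each line is written 5′ to 3′ along its own mRNA, mt-Nd5 at chrM:13526-13565 on the plus strand and mt-Nd6 at chrM:13552-13591 on the minus strand, and capitals mark the overlap, which is the same stretch read from both strands.
mt-Nd5: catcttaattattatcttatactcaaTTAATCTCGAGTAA
mt-Nd6: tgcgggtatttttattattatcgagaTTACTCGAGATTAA

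Whether reads were counted by strand is not stated in the labels. Without strand, reads of heavy-strand precursors that run across mt-Nd6 and reads of its own mRNA cannot be told apart, so the value of mt-Nd6 is uncertain in this respect.

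Ratios within a library need no scaling between libraries. Most counts of the 9 heavy-strand members are of mt-Co1, which made up 71.9% to 74.4% of member counts. Per 1000 counts of the 9 heavy-strand members, mt-Nd6 had 2.77, 2.58 and 2.32 counts in duplication libraries, against 2.98, 3.22 and 3.92 in wild type libraries. The groups did not overlap, and the log2 ratio differed by -0.40 (two-sided exact permutation test, p = 0.1, the smallest that 3 against 3 samples can give). Against its neighbour mt-Nd5 alone it had 23.2, 19.3 and 20.8 per 100 counts in duplication and 24.9, 25.8 and 29.2 in wild type libraries, again without overlap. Against mt-Cytb, on its other side, the values were 2.66, 2.45 and 2.25 per 100 counts in duplication and 2.62, 2.82 and 3.46 in wild type libraries, and duplication replicate 1 lay above wild type replicate 1. The log2 ratio differed by -0.34 against mt-Nd5 and by -0.27 against mt-Cytb.

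**Figure D3:**
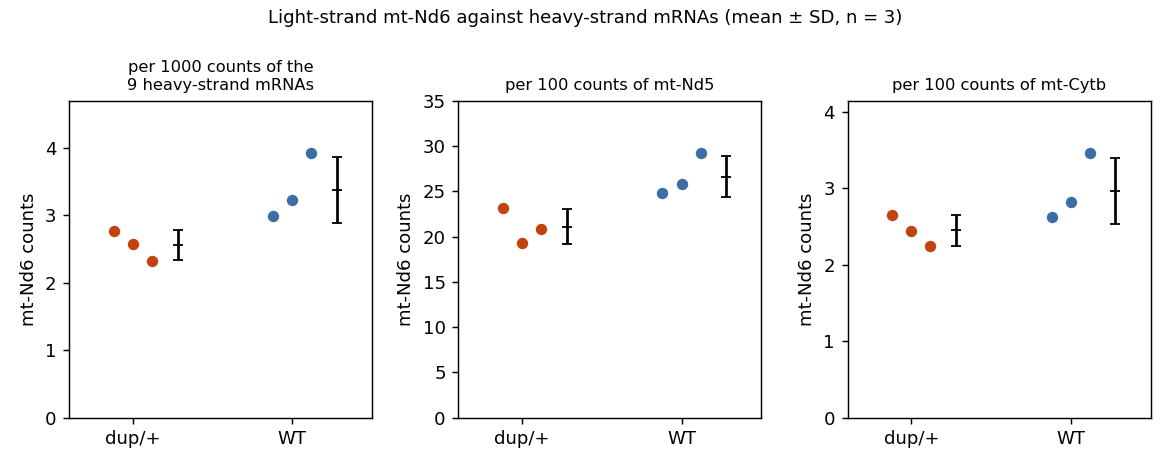
Counts of mt-Nd6 in each library per 1000 counts of the 9 heavy-strand members, per 100 counts of mt-Nd5 and per 100 counts of mt-Cytb, with duplication libraries left (orange), wild type libraries right (blue) and the mean ± SD of 3 libraries. The groups are apart in the first and second panels and overlap in the third. Most counts of the 9 heavy-strand members are of mt-Co1.

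Of the other complex I subunits, mt-Nd2 and mt-Nd4 separated the groups. mt-Nd2, which builds part of the proton-pumping membrane arm, had 297, 301 and 288 CPM in duplication and 359, 333 and 330 CPM in wild type libraries. mt-Nd4, another antiporter-like subunit of that arm, had 426, 434 and 411 CPM in duplication and 480, 510 and 470 CPM in wild type libraries. Neither gene's groups overlapped, and the log2 fold changes were -0.21 ± 0.06 for mt-Nd2 and -0.20 ± 0.06 for mt-Nd4 (edgeR adjusted p = 0.174 for each). Of the words of mt-Nd4, 62.2% are shared with a copy, so its values are uncertain in this respect. Without wild type replicate 2, edgeR called mt-Nd2 lower (adjusted p = 0.0295) and not mt-Nd4 (0.0589). That fit called 10.7% of all genes lower and 4.65% higher.

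mt-Nd1 and mt-Nd5 did not separate the groups. mt-Nd1, which sits at the joint of the membrane arm and the matrix arm near the quinone site, had 1881, 1890 and 1940 CPM in duplication and 2040, 1938 and 1842 CPM in wild type libraries. The groups overlapped, with a log2 fold change of -0.03 ± 0.06 and a 95% interval of -0.16 to 0.10. mt-Nd5, the subunit at the far end of the membrane arm, had 227, 244 and 211 CPM in duplication and 234, 242 and 236 CPM in wild type libraries. Its log2 fold change was -0.06 ± 0.07, with an interval of -0.21 to 0.09.

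mt-Cytb encodes cytochrome b, the only subunit of complex III made in mitochondria. It had 1980, 1926 and 1954 CPM in duplication libraries, against 2220, 2214 and 1993 CPM in wild type libraries. The groups did not overlap, but the highest duplication library and wild type replicate 3 nearly met, and the log2 fold change of -0.13 ± 0.06 did not pass (edgeR unadjusted p = 0.0510, adjusted p = 0.261).

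In complex IV, mt-Co1, the catalytic subunit of cytochrome c oxidase, had by far the most counts of the members. It had 14188, 13481 and 14064 CPM in duplication and 14181, 14106 and 12692 CPM in wild type libraries, which overlapped. Its log2 fold change was 0.03 ± 0.06, with a 95% interval of -0.11 to 0.16, and it was the only member above 0. As 51.1% of its words are shared with copies, the values of mt-Co1 are uncertain in this respect. mt-Co2, which takes electrons from cytochrome c, had 7.25, 11.3 and 9.88 CPM in duplication and 9.91, 10.98 and 10.2 CPM in wild type libraries. mt-Co3, the third core subunit, had 6.16, 8.44 and 7.43 CPM in duplication and 7.21, 7.71 and 8.997 CPM in wild type libraries. Neither passed, at log2 fold changes of -0.14 ± 0.16 and -0.13 ± 0.15, and duplication replicate 1 was the lowest library for both. mt-Atp6, part of the proton channel of ATP synthase, had 40, 26 and 31 counts in duplication and 25, 38 and 30 counts in wild type libraries. That was 1.82, 1.76 and 1.95 CPM in duplication and 1.98, 2.64 and 2.19 CPM in wild type libraries. At -0.31 ± 0.19 it did not pass (edgeR adjusted p = 0.409), and its counts are few.

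**Figure D4:**
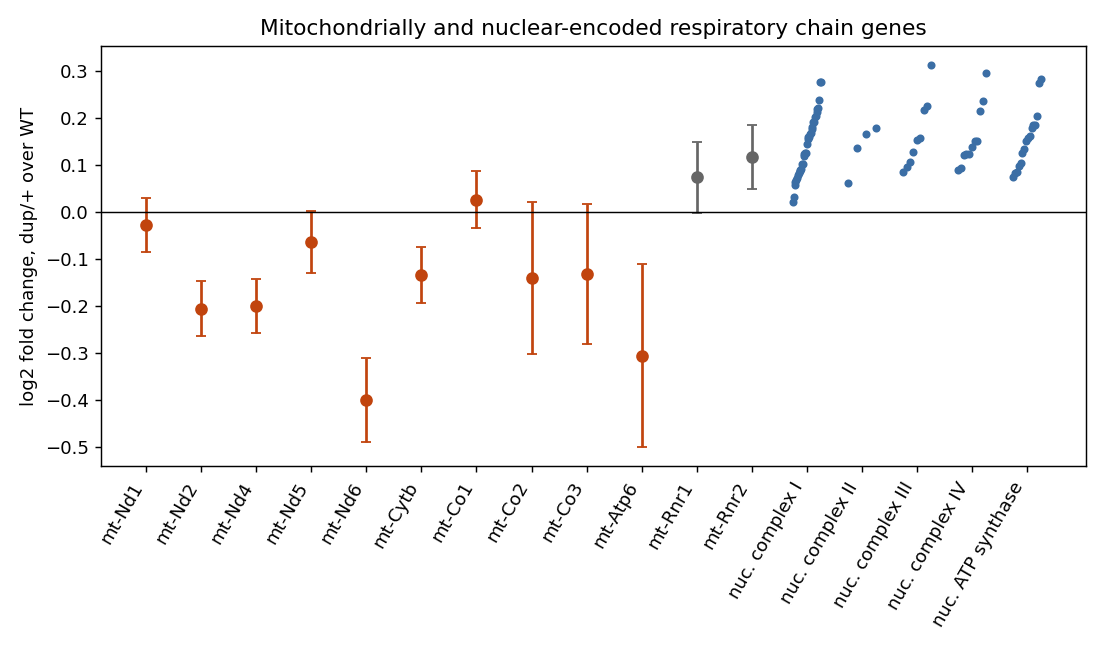
Log2 fold change of duplication over wild type for the 10 members (orange, ± SE), for the mitochondrial rRNAs (grey, ± SE) and for each tested nuclear-encoded subunit of the 4 complexes and ATP synthase (blue points, sorted within a group). Of the members 9 lie below 0, and all 75 nuclear subunits lie above it, of which 23 do with the TEC and sense intronic level as a covariate.

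The sum over the members, most of it mt-Co1, overlapped between groups. The 10 members together took 1.93%, 1.84% and 1.89% of counts in duplication libraries, against 1.92%, 1.96% and 1.75% in wild type libraries. mt-Co1 made up 74.4%, 73.5% and 74.3% of member counts in duplication and 72.4%, 72.6% and 71.9% in wild type libraries, without overlap. mt-Cytb made up 10.4%, 10.5% and 10.3% in duplication and 11.3%, 11.4% and 11.3% in wild type libraries. Parts of one sum are not independent, since a larger part of mt-Co1 leaves smaller parts for the rest.

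The mitochondrial rRNAs stood on the other side of 0 from most mRNAs, without passing. mt-Rnr2, the RNA of the large mitochondrial ribosome subunit, had 56102, 52028 and 50892 CPM in duplication and 49549, 51957 and 45139 CPM in wild type libraries. Its log2 fold change was 0.12 ± 0.07 (edgeR adjusted p = 0.363), and that of mt-Rnr1, of the small subunit, was 0.07 ± 0.08 (0.606). For each count of a member there were 2.94, 2.84 and 2.69 counts of mt-Rnr2 in duplication libraries, against 2.53, 2.67 and 2.56 in wild type libraries, which did not overlap. This ratio was chosen after the values were seen, and no test of it is given. The kit depletes ribosomal RNA, so these are the amounts left after depletion.

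Nuclear genes of the same complexes lay above 0 in the fit by genotype alone. Of 75 tested nuclear-encoded subunits of complexes I to IV and ATP synthase, 75 had a log2 fold change above 0, against 51% of all genes, with a median of 0.15. None passed the edgeR test, 26 had an unadjusted p under 0.05 in the higher direction, where 7.07% of all genes did, and 0 in the lower. Leaving out 1 library moved the 26 to 6 (without duplication replicate 1), 18 (duplication replicate 2), 11 (duplication replicate 3), 7 (wild type replicate 1), 64 (wild type replicate 2) and 7 (wild type replicate 3). Uqcrfs1, the Rieske iron-sulfur protein of complex III, had 119, 107 and 113 CPM in duplication and 86.2, 100.45 and 85.8 CPM in wild type libraries (log2 fold change 0.31 ± 0.08). Uqcr10 of the same complex was at 0.23 ± 0.08, Ndufc2 and Ndufs7 of complex I at 0.28 ± 0.08 and 0.24 ± 0.07, and Ndufa4 and Cox7c of complex IV at 0.30 ± 0.11 and 0.24 ± 0.08. Atp5f1 and Atp5e of ATP synthase were at 0.28 ± 0.09 and 0.27 ± 0.08. Sdhb and Sdhd of complex II, which has no mitochondrially encoded part, were at 0.18 ± 0.08 and 0.17 ± 0.08. With wild type replicate 2 left out, edgeR called 44 of the 75, all higher, in a fit that called 4.65% of all genes higher and 10.7% lower. With wild type replicate 1 left out, 69 lay above 0 and 0 were called.

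The libraries did not all place these groups in the same way. The median of the 10 members lay at -0.08, -0.05 and -0.06 in duplication libraries and at 0.06, 0.09 and 0.05 in wild type libraries, as log2 deviations from the mean of the 6 libraries. The nuclear subunits lay at 0.11, 0.06 and 0.07 in duplication and at -0.19, 0.07 and -0.13 in wild type libraries, so that wild type replicate 2 lay with the duplication libraries for the nuclear subunits and with the wild type libraries for the mitochondrial mRNAs. Transcripts of the GENCODE classes TEC and sense intronic, 292 in the test, lay at -0.43, -0.40 and -0.12 in duplication and at 0.46, 0.01 and 0.51 in wild type libraries. With their level as a covariate 10 of 10 members lay below 0, with a median of -0.20, and edgeR called 0. Under the same covariate 23 of the 75 nuclear subunits lay above 0 and 0 had an unadjusted p under 0.05 in the higher direction, so the direction of the nuclear group did not hold there. The covariate was lower in every duplication library than in every wild type library, so its level and genotype are hard to tell apart. Over all genes, those with an unadjusted p under 0.05 in edgeR fell from 1089 to 230 higher and from 1877 to 213 lower.

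**Figure D5:**
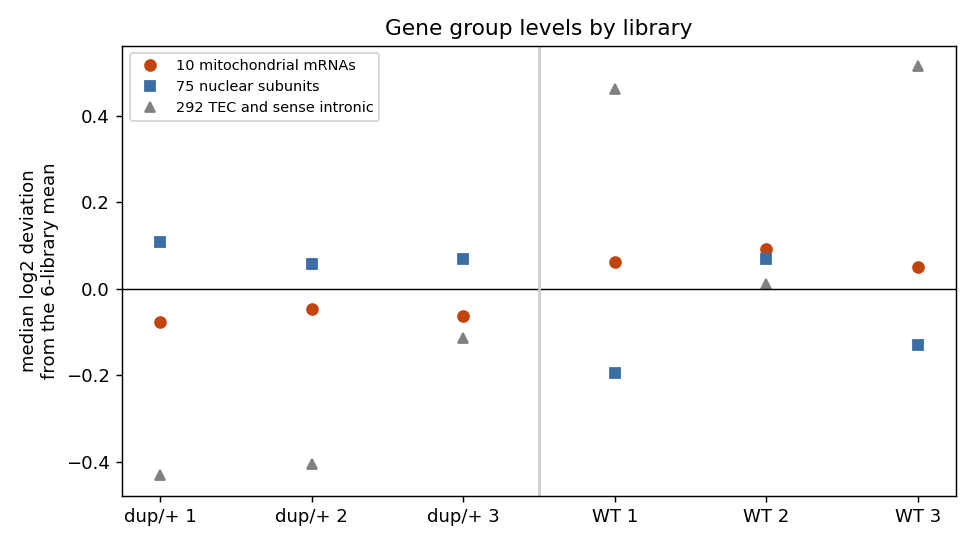
Median log2 deviation from the mean of the 6 libraries for the 10 mitochondrial mRNAs, the 75 nuclear-encoded subunits and the 292 TEC and sense intronic transcripts, in each duplication library (left) and wild type library (right). The mitochondrial mRNAs lie below 0 in all 3 duplication libraries and above 0 in all 3 wild type libraries, and wild type replicate 2 lies apart from the other 2 wild type libraries for the nuclear and the TEC groups.

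Genes that make, process and translate mitochondrial mRNA gave no call. Of 20 tested genes of mtDNA transcription and replication, 0 passed the edgeR test and the median log2 fold change was -0.02. Polrmt, the polymerase, had 15.8, 14.4 and 16.8 CPM in duplication and 19.7, 17.0 and 18.1 CPM in wild type libraries (-0.22 ± 0.10, adjusted p = 0.262), while Tfam, the packaging and transcription factor, was at 0.11 ± 0.09 and overlapped between groups. Mterf2, of the transcription termination factor family, was at 0.26 ± 0.11. Of 24 genes of RNA processing and decay 0 passed (median 0.04), with Ptcd1 and Ptcd2, of the pentatricopeptide repeat family, at 0.24 ± 0.08 and 0.27 ± 0.11. Lrpprc and Slirp, which together hold and stabilise heavy-strand mRNAs, were at -0.003 ± 0.066 and -0.06 ± 0.09.

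Of 37 genes of the mitochondrial ribosome and its translation factors, 0 passed and 31 lay above 0 (median 0.13), with Mrpl28 at 0.27 ± 0.09 and Mrpl2 at 0.20 ± 0.07. Of 30 tested assembly factors 0 passed and 25 lay above 0 (median 0.10), with Sco2, a copper chaperone of complex IV, at 0.50 ± 0.19 and Ecsit, of complex I, at 0.20 ± 0.08. Of 20 abundant proteins of mitochondria 0 passed and 20 lay above 0 (median 0.12), with the ADP/ATP carrier Slc25a4 at 0.21 ± 0.07 and the import receptor Tomm20 at 0.17 ± 0.06. Over all genes 51% lay above 0. In the order given, the median log2 deviations of these lists were 0.05, 0.03 and 0.04 in wild type replicate 2. They were -0.15, -0.12 and -0.14 in wild type replicate 1 and -0.08, -0.04 and -0.08 in wild type replicate 3. Wild type replicate 2 thus lay apart here too, as for the nuclear subunits. The direction of these lists with the TEC and sense intronic covariate is not given.

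Of 11 regulators of mitochondrial biogenesis 0 passed (median -0.02). Ppargc1a, the coactivator PGC-1 alpha, had 34.8, 35.9 and 38.3 CPM in duplication and 63.9, 39.5 and 50.7 CPM in wild type libraries. Its groups did not overlap, at a log2 fold change of -0.50 ± 0.15 (edgeR adjusted p = 0.174). Prkaa1, a catalytic subunit of AMP kinase, was at 0.19 ± 0.07. Of 12 tested genes of the mitochondrial stress response 0 passed (median 0.06), with Asns, asparagine synthetase, at 0.22 ± 0.09 and Phgdh, of serine synthesis, at 0.17 ± 0.08.

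The 5 genes outside the members whose log2 CPM followed the members' mean most closely over the 6 libraries were Sox11, Prcc, Gpx3, Gin1 and Mfhas1, with Pearson r of 0.990, 0.987, 0.983, 0.982 and 0.982. They are the highest of 15391 genes over 6 points that share scaling factors, and are given as a description. Gpx3, a secreted glutathione peroxidase, had the largest difference of them at -0.60 ± 0.17, and 0 of the 5 passed the edgeR test. The members' mean used here includes mt-Co2, mt-Co3 and mt-Atp6, whose counts are uncertain. As a log2 deviation it was -0.12, -0.03 and -0.08 in duplication libraries 1 to 3. Without those members it was -0.04, -0.06 and -0.11, so the order of these libraries changed. The genes closest to the mean without them are not given.

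The labelled tissue and genotype were checked on other genes. Of 27 listed genes of the duplicated segment, 23 were tested at a median of 0.75 on the log2 scale. In 19 of them every duplication library lay above every wild type library, where this held for 11.7% of all genes. As log2 deviations from the mean of the 6 libraries, their median was 0.23, 0.64 and 0.23 in duplication libraries 1 to 3. It was -0.36, -0.35 and -0.37 in wild type libraries 1 to 3. Duplication replicate 2 thus lay well above the other duplication libraries, and the reason was not tested. Slc17a7, the vesicular glutamate transporter of cortical excitatory neurons, had 929, 925 and 974 CPM in duplication and 1141, 925 and 1071 CPM in wild type libraries, which overlapped. With it, 6 of 6 neuron markers given here were detected and summed to 6029 to 6344 CPM in duplication and 5892 to 6498 CPM in wild type libraries. In edgeR 0 of these 6 passed and 5 lay below 0, with a median log2 fold change of -0.13. At an unadjusted p under 0.05, 1 was higher (Snap25, 0.17 ± 0.06) and 1 lower (Rbfox3, -0.23 ± 0.08). Meningeal markers, 7 of 7 detected and 0 of them at 0, summed to 32.1 to 60.1 CPM in duplication and 20.5 to 29.8 CPM in wild type libraries. Of these 7, 5 had an unadjusted p under 0.05 in edgeR, all higher, where 7.07% of all genes were higher. Oligodendrocyte markers, 6 of 6 detected, summed to 1189 to 1602 CPM in duplication and 1328 to 2287 CPM in wild type libraries, and blood markers, 5 of 5, to 68.8 to 126 CPM in duplication and 55.3 to 101 CPM in wild type libraries. Striatal markers, 5 of 5, summed to 48.6 to 52.1 CPM in duplication and 53.4 to 60.6 CPM in wild type libraries. Astrocyte, microglia and endothelial markers were all detected, in duplication against wild type libraries at 3197 to 3423 against 3196 to 3299 CPM, at 263 to 270 against 234 to 263 CPM and at 104 to 126 against 104 to 114 CPM. The part of these cells in the mitochondrial values was not tested.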

How the data were processed

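RNA from 6 prefrontal cortex libraries was sequenced. The labels' protocols name Trizol for extraction and Illumina's stranded TruSeq kit for total RNA, with Ribo-Zero depletion. Cutadapt, TopHat2, HTSeq and the build mm10 are named in the submitters' processing notes, without versions, annotation or strand setting. The values deposited by the authors are raw counts per gene with no normalization.

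Names in the deposited table had slipped against the counts, by 0 to 6 lines in 6 steps. They were moved back by line positions of the steps that earlier work on these data had worked out, which are sure to about 25 lines. Names within 25 lines of a step, and 25 names turned into dates, were not used. At the mitochondrial names, 75 lines from the nearest step, the offset was 6. With it 12 of 15 mRNAs and rRNAs had at least 100 counts and 0 of 22 tRNAs had 1000, and no other offset from 0 to 8 did so. The lines left out, whether unnamed or under names not used, held 0.902% to 0.948% of counts.

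Duplication was compared with wild type in edgeR 4.0.16 (R 4.3.3): filterByExpr, TMM factors, quasi-likelihood F-test, Benjamini-Hochberg adjusted p under 0.05 over 15401 genes. Library sizes were summed over all lines whose names were used. Log2 CPM used a prior count of 2. DESeq2 1.42.0 and limma 3.58.1 (voom) were alternatives. The fit was tested on simulated data. Ratios were compared by exact permutation over samples. Positions, gene classes and transcript sequences came from GENCODE vM21 (mm10), which held 91.88% of names. Shared words were 50 bases long, on both strands; the length of the reads is not stated in the labels. Named genes were each member, the other mitochondrial mRNAs and rRNAs, 2 genes of each mitochondrial list by smallest p, 5 fixed regulators and the 5 genes most like the members. Members and lists were chosen with earlier results of these data known. The labels state no molecular identifiers, so depth speaks for counting error alone. 1 neuron marker is not reported here, and the sum over neuron markers was taken without it.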

Additional observations from a re-analysis of the deposited data

How the results depend on the processing

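No member was called higher under any of the 16 alternatives. The count of members called lower was 0 with all libraries and 1 (mt-Nd6) with DESeq2 and without a filter on low counts; leaving out 1 library gave 0 to 2, the 2 (mt-Nd6 and mt-Nd2) without wild type replicate 2. Over all genes 0 were called higher and 0 lower (1089 and 1877 at an unadjusted p under 0.05; 0 and 0 with limma-voom), against 45 and 238 with DESeq2 and 6 and 1 with the replicate block. Without filtering of low counts they were 173 and 841. Leaving out 1 library gave 0 to 731 higher and 0 to 1677 lower, the highest without wild type replicate 2. The share of genes called lower was 1.55% with DESeq2, 3.18% without the filter and 10.7% without wild type replicate 2. The members' median of -0.14 was -0.20 with the TEC and sense intronic level as a covariate and -0.22 to -0.10 leaving out 1 library. The cause of these changes was not tested. The sign turned for mt-Co1 with that covariate (-0.0404). Leaving out 1 library, mt-Co1 ran from -0.0246 (without wild type replicate 3) to 0.0544, mt-Co2 from -0.28 to 0.0360 (without duplication replicate 1) and mt-Nd1 from -0.0642 to 0.0106 (without wild type replicate 1). mt-Nd2, mt-Nd4, mt-Nd5, mt-Nd6, mt-Cytb, mt-Co3 and mt-Atp6 kept their sign under all 16, but not their size. mt-Co3 (-0.13) was at -0.0074 without duplication replicate 1, -0.24 without duplication replicate 2, -0.038 without wild type replicate 3 and -0.0015 with the covariate. mt-Nd5 (-0.06) was at -0.11 without duplication replicate 2, -0.011 without duplication replicate 3 and -0.19 with the covariate. mt-Atp6 (-0.31) was at -0.18 without wild type replicate 2 and -0.55 with the covariate, mt-Nd4 (-0.20) at -0.34 and mt-Cytb (-0.13) at -0.21 with it. The difference in the members' share of counts ran from -0.0544 to 0.0511 percentage points leaving out 1 library, and the log2 ratio of mt-Nd6 to the heavy-strand members from -0.48 to -0.28. Of the nuclear subunits 75 of 75 lay above 0 in all but 2 of the 16, the covariate (23) and without wild type replicate 1 (69), a check added after the data were seen. Replicate numbers gave no firm pairing: same-numbered deviations correlated at 0.102, 0.0628 and 0.311, and the block gave p = 0.25 for that ratio, the smallest that 3 pairs allow. Depth limits mt-Atp6, with 190 counts in all, and shared sequence limits mt-Co2, mt-Co3 and mt-Atp6 and, in part, mt-Nd4 and mt-Co1.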
